A study of Mus musculus with 3 samples.

Results

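The respiratory chain genes of mouse regulatory T cells were described from polyA plus RNA-seq, those of the nuclear genome together with those of mitochondrial DNA. Members were chosen by symbol alone, as the protein-coding genes whose names begin with Ndufa, Ndufb, Ndufc, Ndufs, Ndufv, Uqcr, Cox4i, Cox5, Cox6, Cox7, Cox8, mt-Nd, mt-Co, mt-Cytb or mt-Atp. The rule took 85 of the 22457 genes with a row in the count tables, 72 of them nuclear and 13 mitochondrial. It also takes 8 complex I assembly factors and the supercomplex factor Cox7a2l, and it leaves out cytochrome c1, complex II and the nuclear subunits of ATP synthase, which stand below as separate lists. The study holds 3 libraries of primary cells from adult mice aged 4 months, described in the labels as coming from bone marrow haematopoietic cells. No strain, allele or treatment is given, and the sex was not collected. The libraries carry the technical replicate numbers 1, 2 and 3 of biological replicate 1, so there was 1 group, with nothing to compare it with. Differences between libraries and their p-values therefore measure the spread between libraries and say nothing of the spread between animals.

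The respiratory chain sits in the inner mitochondrial membrane. Complex I takes electrons from NADH and passes them to ubiquinone, complex III passes them on to cytochrome c, and complex IV hands them to oxygen. The protons moved on the way drive ATP synthase. Most subunits are encoded in the nucleus and imported, while mitochondrial DNA encodes the central subunits that lie in the membrane, so each complex except complex II is built from both genomes. Regulatory T cells, the CD4 T cells that restrain other immune cells and are marked by the transcription factor Foxp3, are known to lean on respiration more than conventional effector T cells do.

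The libraries held 3206781, 3228215 and 2872350 counts in genes. All 6 regulatory T cell markers looked at (Foxp3, Il2ra, Ctla4, Ikzf2, Cd4 and Cd3e) reached 1 CPM in every library, and their summed level was 2003 to 2112 CPM (counts scaled to a library total of 1000000). Markers of B cells summed to 1147 to 1371 CPM, with Ighm as the largest. In RNA from a bulk sample, fewer cells of a type and less RNA per cell cannot be told apart. A count of 0 in a library is read against a floor of 3 counts, which was 0.936, 0.929 and 1.04 CPM, and floors and intervals cover counting error only. Levels of different genes are compared here per length, as CPM per kilobase of coding sequence or as counts per coding base, with the mean and SD over the 3 libraries.

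Together the 85 members took 1.23% ± 0.0610 (SD, n = 3) of all counts. Nuclear members held 25202, 29021 and 24068 counts in libraries 1, 2 and 3, which is 0.786%, 0.899% and 0.838% of the totals. Mitochondrial members held 12064, 12246 and 11900 counts, or 0.376%, 0.379% and 0.414%. The nuclear share was highest in library 2, and the mitochondrial share was highest in library 3. At least 1 CPM in every library was reached by 71 members, 64 nuclear and 7 mitochondrial, beside 48.4% of all genes and 49.8% of the protein-coding genes. The 14 others were 8 tissue forms of complex IV subunits and 6 mitochondrial genes.

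The mitochondrial genes fell into blocks that follow their order on the chromosome. At one end mt-Nd1, mt-Nd2 and mt-Co1 were abundant, at the other mt-Nd4, mt-Nd5, mt-Nd6 and mt-Cytb were, and the 6 genes between mt-Co1 and mt-Nd4 had almost no counts. mt-Nd1, a membrane subunit of complex I next to the ubiquinone site (chrM:2751-3707, plus strand), had 1840, 1860 and 1829 counts. mt-Cytb, the cytochrome b of complex III (chrM:14145-15288, plus strand), had 2231, 2240 and 2221 counts. These counts were almost equal in the 3 libraries, although library 3 had the smallest total. mt-Nd5, a proton-pumping subunit of complex I (chrM:11742-13565), had 3101, 3134 and 3068 counts. mt-Nd2, another pumping subunit (chrM:3914-4951), had 1575, 1648 and 1509. mt-Nd6, the member on the minus strand (chrM:13552-14070), had 866, 905 and 836, and 14 bases of it overlap mt-Nd5. The strand setting of the counting is not given in the sources used here, so reads from the opposite strand cannot be told apart from reads of mt-Nd6. mt-Co1, the catalytic subunit of complex IV (chrM:5328-6872), had 1430, 1427 and 1418 counts, and mt-Nd4, a pumping subunit of complex I (chrM:10167-11544), had 1019, 1030 and 1019.

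The 6 genes without signal lie next to each other over 3161 bases, from chrM:7013 to chrM:10173. mt-Co2, which receives electrons from cytochrome c, had 0, 1 and 0 counts in libraries 1, 2 and 3, and mt-Nd3, a small membrane subunit of complex I, had 2, 1 and 0. mt-Co3, the remaining core subunit of complex IV, mt-Nd4l of complex I, and mt-Atp6 and mt-Atp8 of ATP synthase had 0 counts in all libraries. Each is therefore at or under the floor, while mt-Co1 and mt-Nd4 on both sides of them were abundant. Each of the 6 belongs to a complex in which many other subunits were abundant. Some nuclear subunits of the same complexes also had few counts, such as Ndufab1, Cox7c and Atp5g1, given below.

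The coding sequence of each member was read in overlapping windows of 50 bases, 1 starting at each base, and each window was looked up in the transcripts of all other genes annotated in GENCODE M21 (GRCm38), pseudogenes included. In mt-Co2, mt-Atp6 and mt-Nd4l 100% of windows also occurred in another gene, in mt-Co3 99.9% and in mt-Nd3 99.0%. The matching genes form a row of 7 annotated unprocessed pseudogenes on the minus strand of chromosome 1, chr1:24611535-24616197, spanning 4663 bases. They stand in the order of the mitochondrial genes, from the end of mt-Co1 (Gm29216) through mt-Co2 (Gm28661), mt-Atp6 (Gm10925), mt-Co3 (Gm28437), mt-Nd3 (Gm28438) and mt-Nd4l (Gm10222) to the first 876 bases of mt-Nd4 (Gm28439). None of the 7 has a row in the count tables, which hold mostly protein-coding genes. mt-Atp8 has no annotated copy and 0% shared windows. It lies between mt-Co2 and mt-Atp6, which are 230 bases apart, and overlaps mt-Atp6 by 43 bases, while the 2 pseudogenes of these genes are 233 bases apart on chromosome 1, with nothing annotated between them. The part of these copies in the zeros was not tested, since read alignments were not analysed here.

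How close the copies are can be seen from the first 120 coding bases of mt-Nd3 (chrM:9459-9806, plus strand) beside the same stretch of Gm28438 (chr1:24612775-24613119, minus strand), both 5′ to 3′ from GENCODE M21 transcripts on GRCm38. Capitals mark the base that differs, which is the only differing position in the whole coding sequence.
mt-Nd3: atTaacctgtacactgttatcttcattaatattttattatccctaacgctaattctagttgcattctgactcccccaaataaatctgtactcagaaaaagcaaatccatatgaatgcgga
Gm28438: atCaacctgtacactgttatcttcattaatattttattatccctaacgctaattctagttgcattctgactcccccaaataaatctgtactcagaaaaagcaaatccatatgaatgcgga
mt-Cytb also has a copy on another chromosome, Gm11410 (chr4:80003989-80005131, plus strand), but at 92.91% identity with 81 differing positions. Coding bases 2 to 121 of mt-Cytb and the matching stretch of Gm11410 are shown with the differing bases in capitals, and no window of 50 bases is shared between them.
mt-Cytb: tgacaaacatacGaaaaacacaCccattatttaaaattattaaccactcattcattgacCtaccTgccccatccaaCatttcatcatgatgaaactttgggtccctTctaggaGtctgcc
Gm11410: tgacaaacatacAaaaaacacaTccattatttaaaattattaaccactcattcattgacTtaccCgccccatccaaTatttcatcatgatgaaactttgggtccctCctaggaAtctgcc
In mt-Nd4 the copy ends inside the gene. Coding bases 817 to 936 are shown with the part that lies in the shared run in capitals and the part beyond it in lower case.
mt-Nd4: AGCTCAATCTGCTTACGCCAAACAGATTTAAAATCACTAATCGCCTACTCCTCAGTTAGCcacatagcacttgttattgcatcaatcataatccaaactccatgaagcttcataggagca

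The share of copied sequence also differed among the 7 mitochondrial genes with counts. No window was shared in mt-Nd1, mt-Nd6 and mt-Cytb, against 7.62% in mt-Nd5, 8.22% in mt-Nd2, 51.0% in mt-Co1 and 62.2% in mt-Nd4. Per coding base the counts were 1.95 in mt-Cytb, 1.93 in mt-Nd1, 1.70 in mt-Nd5, 1.68 in mt-Nd6, 1.52 in mt-Nd2, 0.924 in mt-Co1 and 0.742 in mt-Nd4, a range of 2.63-fold. The genes with the most copied sequence were thus the lowest per coding base. Per copy-free window the values were 2.04 in mt-Nd1, mt-Nd4 and mt-Cytb, 1.95 in mt-Co1, 1.89 in mt-Nd5, 1.86 in mt-Nd6 and 1.74 in mt-Nd2, a range of 1.17-fold. Divided this way, mt-Nd4 and mt-Co1 lay close to the genes that have no copied window. With windows of 36 bases the same 7 genes ranged from 1.77 to 2.34 counts per copy-free window, or 1.32-fold. The highest was then mt-Co1 at 2.34, above mt-Cytb at 2.08, mt-Nd1 at 2.01 and mt-Nd6 at 1.86. The highest value of any gene in the tables was 3.12 counts per coding base, and whether a common limit brings these genes together was not tested.

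**Figure D1:**
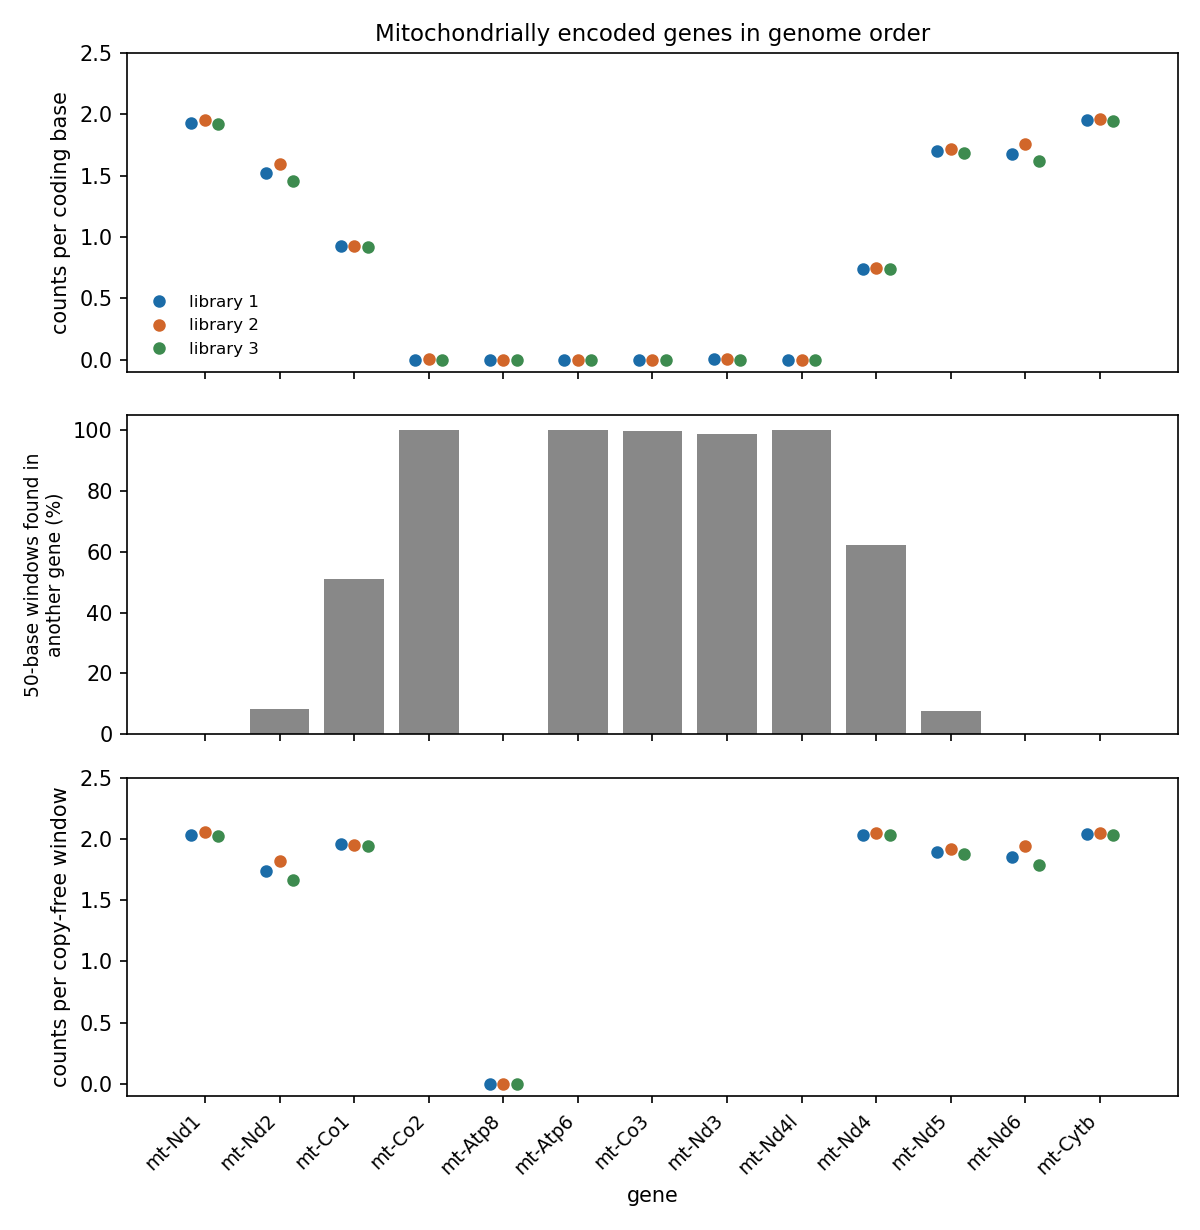
The 13 mitochondrial genes are ordered by position on chromosome M, with counts per coding base in each library (top), the percent of 50-base windows that occur in another annotated gene (middle) and counts per copy-free window (bottom, left out where a gene has fewer than 100 such windows). The 6 genes from mt-Co2 to mt-Nd4l lie at or near 0, and the other 7 range 2.63-fold at the top but 1.17-fold at the bottom, with the libraries close together in each gene.

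Complex I has 7 core subunits from the nucleus, which carry the electron path from NADH in the arm that protrudes into the matrix. Their median level was 182 CPM per coding kilobase, from 95.6 to 358. Ndufv2, which holds an iron-sulfur cluster beside the NADH site, had the highest level at 358 ± 38.8 (SD, n = 3), with 771, 960 and 749 counts. Ndufs8, which holds further clusters, stood at 313 ± 31.5 and Ndufs7, which holds the last cluster before ubiquinone, at 284 ± 18.7. The NADH-binding subunit Ndufv1 stood at 182 ± 5.87. The lowest were Ndufs1, the largest subunit with further clusters, at 144 ± 16.4, and Ndufs3 at 95.6 ± 5.82, and 47.8% of the windows of Ndufs3 also occur in another gene.

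The 29 accessory subunits of complex I surround this core and are mostly short. Their median was 296 CPM per coding kilobase, with a wide range from 12.6 to 517. Ndufa6, an accessory subunit of the matrix arm, reached 517 ± 34.3, Ndufa3 490 ± 12.8, Ndufa13, also known as GRIM-19, 484 ± 29.5, and the small membrane subunit Ndufa1 458 ± 35.4. Neighbouring values among these 4 differed by less than the larger of the 2 SDs. At the other end, Ndufab1, the mitochondrial acyl carrier protein, had 21, 18 and 16 counts, or 12.6 ± 1.20 CPM per coding kilobase. Ndufb4, a membrane arm subunit, had 56, 60 and 40 counts, or 43.0 ± 6.28. Ndufab1 lay under all other accessory subunits in each library, and Ndufb4 overlapped only with Ndufs5, which had 55, 67 and 42 counts or 55.1 ± 9.69.

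The 8 assembly factors, which help to put complex I together and then leave it, had a median of 72.8 CPM per coding kilobase, against 307 for the 55 nuclear subunits. Ndufaf8 was highest at 163 ± 38.1, followed by Ndufaf4 at 114 ± 18.7, its partner Ndufaf3 at 107 ± 25.1 and the methyltransferase Ndufaf7 at 77.5 ± 5.28. Ndufaf5, which hydroxylates an arginine of Ndufs7, stood at 36.5 ± 3.39 and Ndufaf6 at 16.5 ± 1.94. No assembly factor shared a window with another gene, so that the low level of Ndufaf6, at 57, 46 and 50 counts, has no annotated copy beside it.

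Complex III had 8 nuclear members with a median of 304 CPM per coding kilobase. The hinge protein Uqcrh, which binds near cytochrome c1, was the highest at 583 ± 41.3, with 464, 501 and 479 counts. The small subunits Uqcrq and Uqcr10 followed at 494 ± 20.6 and 463 ± 41.1, and the core protein Uqcrc2 at 335 ± 21.6. The lowest were Uqcr11 at 183 ± 29.9 and Uqcrb, which lies beside cytochrome b, at 160 ± 12.1. These 2 have the largest share of copied windows in the complex, 33.6% and 72.9%.

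Complex IV had 11 subunits of the common form with a median of 383 CPM per coding kilobase. Cox4i1, the large regulatory subunit (chr8:120668222-120674207, plus strand), had 1017, 1053 and 1028 counts, which gave 658 ± 42.2 CPM per coding kilobase and 2.04 counts per coding base, the highest values of all 85 members. Cox6b1, which helps to link the complex IV dimer, reached 569 ± 31.6, Ndufa4, first assigned to complex I and now counted in complex IV, 509 ± 37.0, and Cox7b 444 ± 40.3. Cox5b, which binds zinc, stood at 127 ± 12.4. Cox7c, a single-span membrane subunit, stood at 25.5 ± 5.11 with 19, 14 and 12 counts, far under every other common subunit in each library. The supercomplex factor Cox7a2l, which links complexes III and IV, reached 129 ± 8.64, with 54.1% of its windows in another gene.

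**Figure D2:**
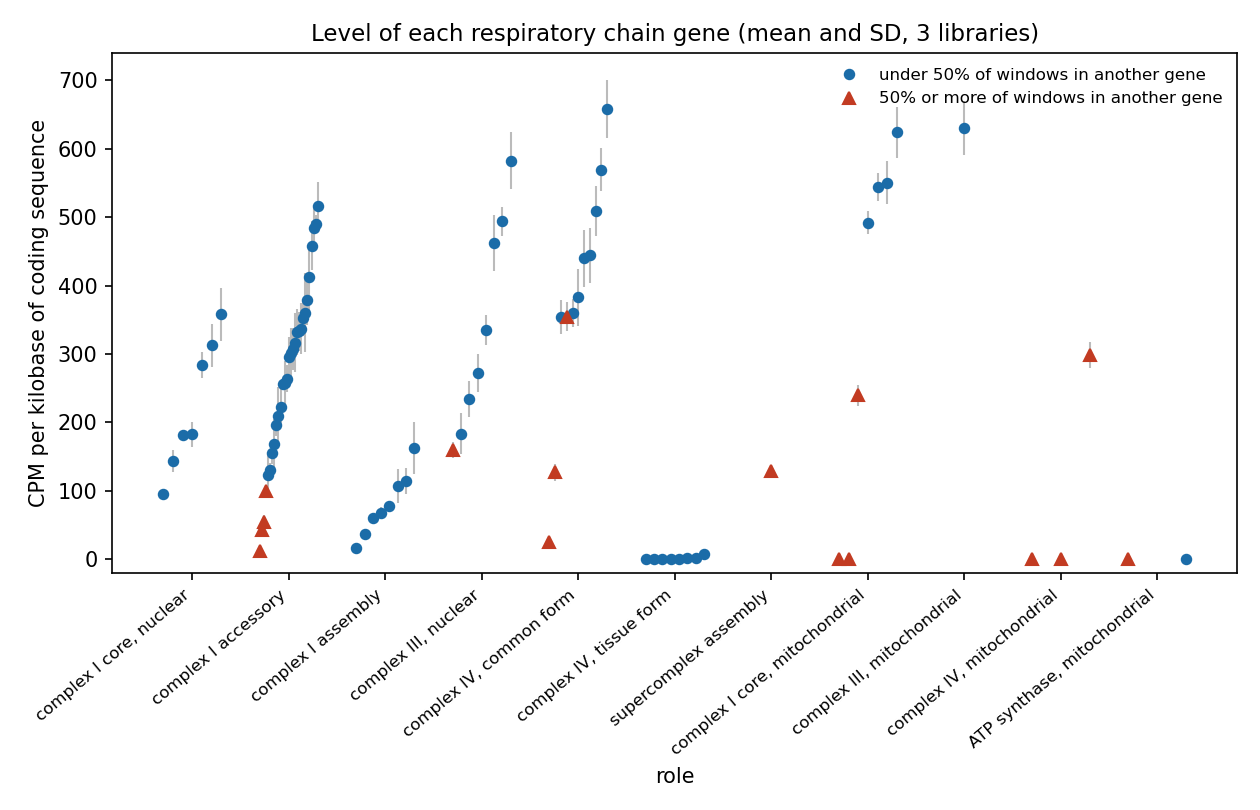
Each point is 1 member, with its mean CPM per kilobase of coding sequence and SD over 3 libraries (vertical axis, linear), grouped by role (horizontal axis). Triangles mark members with 50% or more of their windows in another gene. Subunits reach up to 658, tissue forms of complex IV lie near 0, and the lowest accessory and common subunits, as well as the mitochondrial genes at or near 0 except mt-Atp8, are triangles.

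The low level of Cox7c stood beside complete sharing of its sequence. Its coding sequence (gene at chr13:86044816-86046904, minus strand) has 4 annotated copies, all processed pseudogenes. The copy Gm12338 on chromosome 11 is identical to it over all 189 bases. The whole coding sequence of Cox7c is shown beside Gm10012 (chr17:25901856-25902227, plus strand), the closest copy that differs, with the 2 differing bases in capitals, both 5′ to 3′ from GENCODE M21 on GRCm38.
Cox7c: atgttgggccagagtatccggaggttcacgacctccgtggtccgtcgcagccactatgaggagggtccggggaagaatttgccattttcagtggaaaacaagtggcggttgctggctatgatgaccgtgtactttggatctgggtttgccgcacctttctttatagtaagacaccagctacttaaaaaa
Gm10012: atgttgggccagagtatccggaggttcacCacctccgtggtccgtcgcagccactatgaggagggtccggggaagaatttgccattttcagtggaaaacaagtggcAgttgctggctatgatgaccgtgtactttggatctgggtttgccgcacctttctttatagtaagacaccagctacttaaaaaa
Of the nuclear members, 24 have a total of 40 annotated copies with at least 90% identity over at least 80% of the coding sequence, and 38 of the copies are processed pseudogenes. The 9 nuclear members with 50% or more of their windows in another gene had a median of 0.309 counts per coding base. The 48 without a shared window had a median of 0.811 with the tissue forms and assembly factors included, and the 13 with shared windows up to 25% had 1.03. Among the 55 nuclear subunits, leaving out assembly factors, tissue forms and Cox7a2l, the 4 under 0.2 counts per coding base were Ndufab1, Cox7c, Ndufb4 and Ndufs5. Their shares of copied windows were 99.8%, 100%, 100% and 72.5%. Sharing did not always go with a low count, since Cox6c, a small membrane subunit, had 53.6% of its windows in other genes and 1.10 counts per coding base. Most rows of the count tables, 21352 of 22457, are protein-coding genes, so a missing row says little of a copy. Of the 49 copies of all members 2 have a row, and neither is annotated as a pseudogene. They are Gm11273, a copy of Cox5b, with 0, 1 and 1 counts, and 4930481A15Rik, which resembles Uqcr10, with 73, 70 and 70. The part of the copies in the low levels was not tested.

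**Figure D3:**
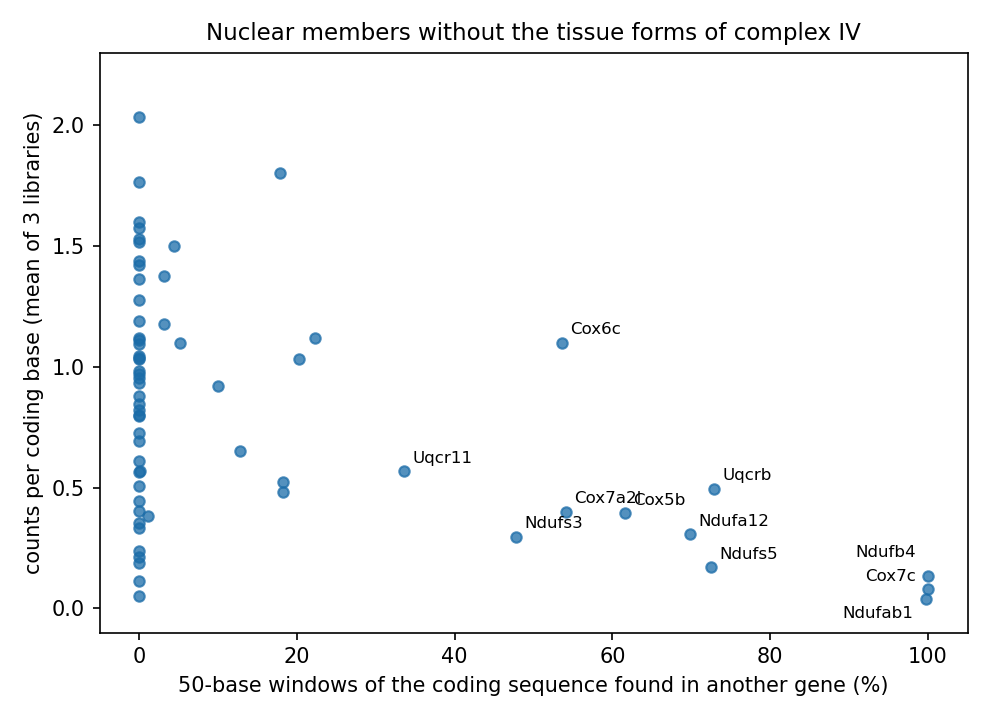
Nuclear members without the tissue forms are plotted by the percent of 50-base windows found in another gene (horizontal axis) and the counts per coding base (vertical axis, mean of 3 libraries). Ndufb4, Cox7c and Ndufab1 lie at 99.8% to 100% and under 0.2, Cox6c lies at 53.6% and 1.10, and points without shared windows cover the whole range up to 2.04.

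Several complex IV subunits exist as a common form and a form known from heart and skeletal muscle, lung, brown fat or testis. In each of the 8 pairs compared the common form held nearly all counts. Cox4i1 had 3098 pooled counts against 2 of Cox4i2, the lung form, a log2 ratio per coding length of 10.62 (95% exact binomial interval 8.77 to 13.67). Cox6a1 had 1127 against 3 of the heart and muscle form Cox6a2 (8.35, interval 6.80 to 10.63). Cox7b had 991 against 1 of Cox7b2 (9.99, interval 7.51 to 15.29), and Cox8a had 738 against 2 of the muscle form Cox8b (8.55, interval 6.69 to 11.60). Cox6b1 had 1367 against 7 of the testis form Cox6b2 (7.88, interval 6.84 to 9.20). Cox8c, another testis form, and Ndufa4l2, a relative of Ndufa4 induced by low oxygen, had 0 counts in every library, and with 3 pooled counts in place of 0 the log2 ratios were at least 8.004 for Cox8a over Cox8c and at least 8.68 for Ndufa4 over Ndufa4l2. The single count of Cox7b2 and all 3 counts of Cox6a2 came from library 3, and both counts of Cox8b from library 2. Without those libraries the ratios were at least 7.85 for Cox7b, 7.82 for Cox6a1 and 7.26 for Cox8a, set against 3 pooled counts.

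The tissue form with the most counts was Cox7a1, the heart and muscle form of Cox7a2. It had 5, 3 and 9 counts against 315, 382 and 322 of Cox7a2, a log2 ratio of 6.01 (95% exact binomial interval 5.32 to 6.79). None of the 8 tissue forms shared a window with another gene, so that their low counts had no copied sequence beside them. The defining markers of the tissues were also near 0, with a summed level of 2.18, 4.96 and 3.83 CPM for 7 striated muscle genes, 0.936, 0.310 and 0 CPM for 5 brown fat genes and 1.87, 1.55 and 2.79 CPM for 6 male germ cell genes. Ucp1 of brown fat and Myh6 and Myh7 of muscle had 0 counts in all libraries.

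The level of the mitochondrial members relative to the nuclear subunits depended on which members were taken. The median of all 13, including the 6 at or near 0, over the median of the 55 nuclear subunits gave log2 ratios of -0.27, -0.56 and -0.20 in libraries 1, 2 and 3 (mean -0.35 ± 0.19, SD, n = 3). With the 7 that had at least 100 counts on average, the log2 ratios were 0.91, 0.64 and 0.93 (mean 0.83 ± 0.16). Library 2 was the lowest on both measures. The sign thus turned with the treatment of the 6 genes that have copies or lie among them. It also turned with all 13 kept, to 1.28 per kilobase of exon and to 0.37 from summed CPM over summed length. With 3 libraries the smallest p of an exact sign test is 0.25, and none was run. Among single genes, mt-Cytb at 630 ± 39.6 CPM per coding kilobase and mt-Nd1 at 624 ± 37.4 lay between Cox4i1 and Uqcrh from the nucleus. mt-Cytb differed from Cox4i1 and from mt-Nd1 by less than the larger SD of each pair, while mt-Nd1 exceeded Uqcrh by slightly more than that. Whether a limit on counts per base holds down the highest levels, and with them the ratio of the genomes, was not tested.

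For every gene the 3 counts were compared by a chi-square test with Poisson expectation, on library sizes corrected by TMM. Of the 71 members tested 25 passed at an adjusted p of 0.05 (Benjamini-Hochberg over all genes), 35.2%, beside a background of 27.6% over all 10282 genes tested. Among genes with a mean count of 100 to 1500, a range that holds most members, the background was 34.2%, so the members' count as such was close to that of other genes. Members that passed and were highest in library 2 numbered 17 of the 71 (23.9%, background 8.71%, or 13.3% among genes with a coding length of 600 bases or less). Among genes of that length with a mean count of 100 to 1500 the background was 18.1%. Members that passed and were highest in library 3 numbered 8 (11.3%, background 7.75%) and those highest in library 1 0 (background 11.1%). Among genes with a coding length of 600 bases or less these backgrounds were 3.47% for library 3 and 2.45% for library 1. With a mean count of 100 to 1500 as well they were 2.92% and 2.64%. Of the 8 highest in library 3, 1 nuclear member was that short, and the 5 mitochondrial ones were longer. The test takes counting error as the only spread. The chi-square test was repeated with a negative binomial variance in place of the Poisson one. It used the common spread of all genes tested, as estimated by edgeR (a coefficient of variation of 12.5%). With this variance 0 members passed at an adjusted p of 0.05, where the background was 0.914%. The spread was estimated from the same 3 libraries, so differences between them count as noise in that test. In that test 0 members had an unadjusted p under 0.05. The calls of all 25 members were therefore lost with it.

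All 17 that peaked in library 2 were nuclear, and 15 of them were subunits. Ndufb2, an accessory subunit of complex I (chr6:39592574-39603382, plus strand), had the largest ratio, with 90, 159 and 111 counts. After scaling, library 2 was 1.71-fold above library 1 (95% interval 1.31 to 2.24, adjusted p = 0.0019, chi-square test), and library 3 lay between them. The call was lost without library 1 (adjusted p = 0.226, chi-square test) and without library 2 (adjusted p = 0.148). Exons of Ndufb2 overlap those of Braf and Gm16272 on the opposite strand and 145 bases of the protein-coding gene Gm42420 on the same strand, and its counts are uncertain to that degree. Ndufaf3, an assembly factor, had 143, 233 and 178 counts and a ratio of 1.58 (interval 1.28 to 1.96, adjusted p = 0.00084, chi-square test), and it did not pass without library 1 (adjusted p = 0.414). Ndufaf8 had 112, 172 and 109 counts (1.49-fold), Ndufc1, a small membrane subunit, 124, 187 and 135 (1.46-fold), and Ndufs6, which binds zinc, 170, 252 and 164 (1.44-fold). In each of these genes library 2 stood above both others. Ndufa2 (1.33-fold), Ndufb8 (1.26-fold), Ndufb9 (1.24-fold) and Ndufa8 (1.24-fold), all accessory subunits, were also highest in library 2 and lowest in library 1. Exons of Ndufb8 and Ndufb9 overlap protein-coding genes on the same strand, Gm20538 by 134 bases and Gm49356 by 201.

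The other direction was led by Ndufs1, the largest subunit of complex I (chr1:63143596-63176833, minus strand). It had 1027, 889 and 994 counts, the lowest in library 2, and library 3 was 1.29-fold above library 2 after scaling (95% interval 1.17 to 1.41, adjusted p = 4.5e-06, chi-square test), and the call was lost without library 2 (adjusted p = 0.317). Cox4i1 and Uqcrc2 were also highest in library 3 after TMM scaling, with ratios of 1.13 and 1.11, and both calls were lost without any 1 of the libraries. On plain totals the adjusted p of Cox4i1 was 0.056 by the chi-square test, and Uqcrc2, with 1351, 1530 and 1351 counts, was highest in library 2. The 5 mitochondrial genes that passed, mt-Nd1, mt-Nd4, mt-Nd5, mt-Co1 and mt-Cytb, were all highest in library 3 and lowest in library 2, with ratios of 1.13 to 1.14. Their counts before scaling were nearly equal, as given above, so that the ratios come from the division by library size. All 5 calls were lost without library 3, those of mt-Co1 and mt-Nd4 without library 2, and that of mt-Nd4 also on plain totals (adjusted p = 0.062, chi-square test). Of all genes tested at 1.6 or more counts per coding base, 56 passed (45.5%) and 55 of those were highest in library 3, and mt-Nd1, mt-Nd5 and mt-Cytb lie in that range.

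**Figure D4:**
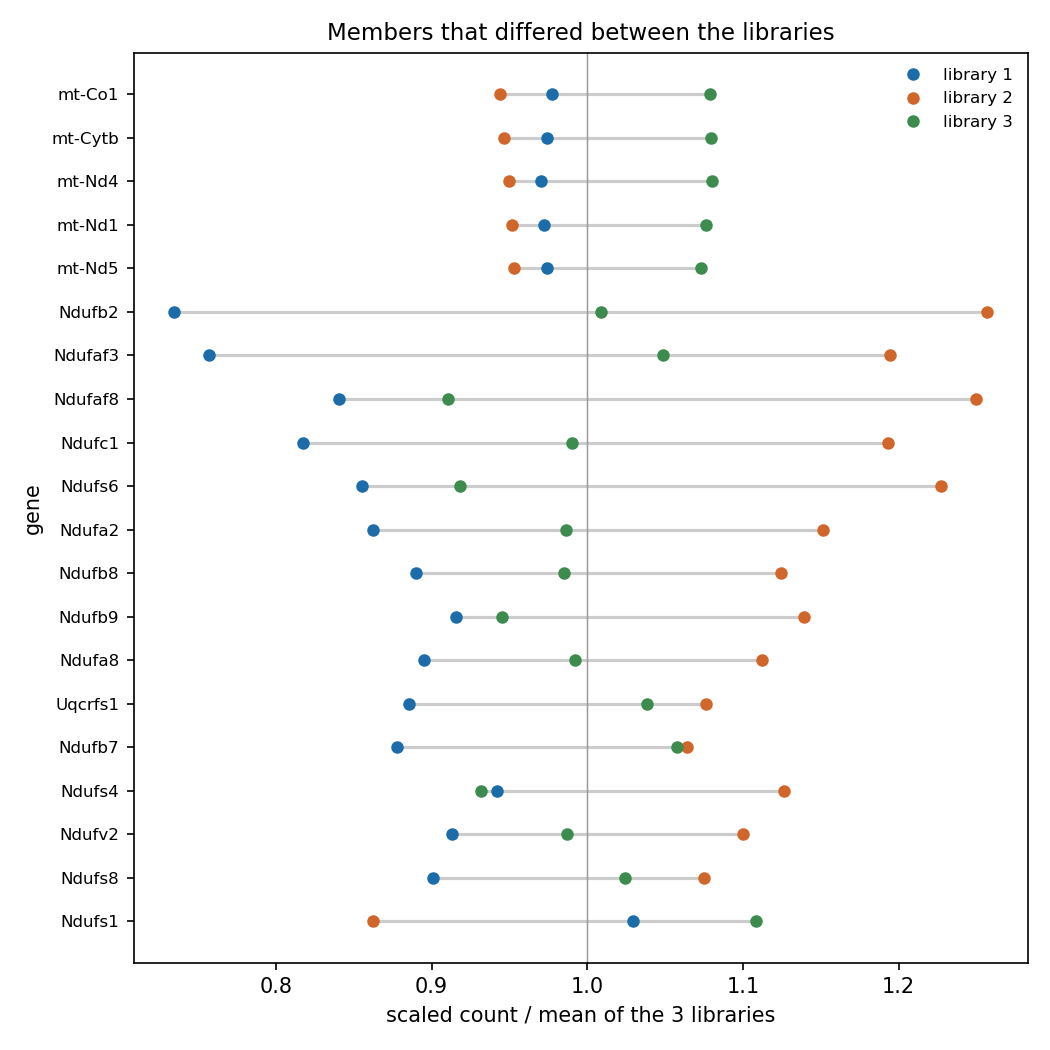
Of the members that passed the test, the 5 mitochondrial ones and the 15 nuclear ones with the largest ratio of highest to lowest library are shown with the scaled count of each library divided by the mean of the 3 (horizontal axis). Mitochondrial genes (top) are highest in library 3 by up to 1.14-fold, and nuclear members are highest in library 2, up to 1.71-fold for Ndufb2, except Ndufs1, which is highest in library 3.

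By role, 10 of 29 accessory subunits and 4 of 7 nuclear core subunits of complex I passed, as did 2 of 8 assembly factors, 3 of 8 nuclear members of complex III and 1 of 11 common subunits of complex IV, beside the background of 27.6%. Differences between the roles were not tested. Scaled counts in library 2 exceeded the mean of libraries 1 and 3 in 53 of the 64 nuclear members tested, in 35 of the 44 of them that did not pass, and in 0 of the 7 mitochondrial ones. The same held for 48.9% of all genes and for 71.1% of genes with a coding length of 600 bases or less. The median log2 difference was 0.15 in nuclear members and -0.0075 over all genes. Genes of that short coding length, which most members have, showed nearly the same shift, with a median of 0.14. Library 2 also had the highest sums of plasma cell markers (38.4, 449 and 112 CPM), neutrophil markers (1.56, 78.4 and 9.40 CPM) and erythroid markers (8.11, 218 and 182 CPM). All 7 erythroid genes, 4 of 4 neutrophil genes tested and 2 of 3 plasma cell genes tested passed, and in library 1 the globins Hba-a1, Hba-a2, Hbb-bs and Hbb-bt and the neutrophil genes S100a8 and S100a9 had 0 counts. Their part in the members' differences was not tested. Without library 2 the test passed 6 members, without library 1 it passed 11 and without library 3 it passed 17.

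Unscaled counts of library 3 against library 1 were read by the members' counts per coding base. The totals differed by a log2 ratio of -0.16. In the 15 members tested with fewer than 0.4 counts per base of coding sequence the median log2 ratio was -0.15, near that of the totals. This value was -0.08 with members of at least 100 counts on average and -0.06 with counts per base of exon, near the next range. The median was -0.05 in the 26 members from 0.4 to 1 and in the 22 from 1 to 1.6, and -0.0076 in the 8 members at 1.6 or more, which were Cox4i1, Cox6b1, Ndufa6, Uqcrh, mt-Cytb, mt-Nd1, mt-Nd5 and mt-Nd6. Over all genes tested in these ranges the medians were -0.19, -0.12, -0.06 and -0.04. Members with many counts per base therefore had almost the same count in both libraries, like other genes of that range.

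**Figure D5:**
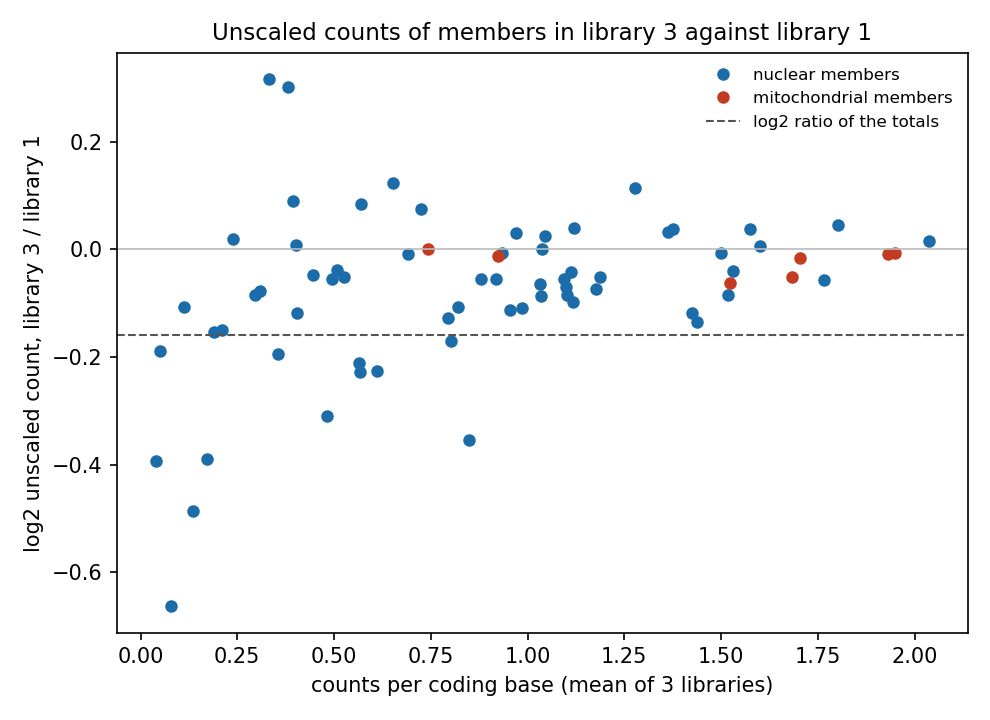
Each tested member is placed by its counts per coding base (horizontal axis, mean of 3 libraries) and the log2 ratio of unscaled counts, library 3 over library 1 (vertical axis). The dashed line is the log2 ratio of the totals, -0.16, and all mitochondrial members (red) and the members at 1.6 or more lie above it, close to 0.

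Promoters were looked up for motifs of factors known to act on respiratory genes. RefSeq promoter windows on GRCm38, from 250 bases before to 50 bases after a start site, were found for 58 of the 72 nuclear members and for 27025 gene symbols in all, and both strands were searched for exact letters. The palindromic core motif of NRF1, nuclear respiratory factor 1, was present in 5 members, 8.62%, against 1.07% of all symbols, and those were Cox6a1, Ndufa11, Ndufaf4, Ndufaf5 and Uqcrc1. Its looser form, with any base at the fifth position, which contains the former, was present in 11 (19.0% against 5.19%). The YY1 motif was present in 5 (8.62% against 0.995%), Ndufa9, Ndufaf8, Ndufs4, Ndufs6 and Ndufs7. The ETS motif CCGGAAG, which GABP binds, was present in 11 (19.0% against 9.93%). The 27025 symbols outnumber the 22457 genes in the count tables, of which 48.4% reached 1 CPM in every library. Shares among expressed genes alone are not given, so the differences cannot be called particular to respiratory genes. These are matches of letters in a window and were not tested for binding.

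Other genes of the pathway were read from 9 lists with 135 entries, of which 132 matched a gene in the tables and 125 could be tested. Of these 34 passed the test between libraries, 27.2%, which is near the background of 27.6% and so says nothing particular of the lists. Library 1 was the highest in 15 of them, library 2 in 9 and library 3 in 10. Complex II, which feeds electrons from succinate, was led by Sdhb at 378 ± 32.0 CPM per coding kilobase, the catalytic Sdha at 351 ± 16.6 and the membrane anchor Sdhd at 216 ± 10.7, and 1 of 7 tested passed, Sdhb, highest in library 2. The assembly factor Sdhaf1 had 0 counts in every library. Among complex III genes outside the symbol rule, 3 of 7 passed. The assembly factors Uqcc2 and Uqcc3 stood at 214 ± 34.2 and 171 ± 26.3 CPM per coding kilobase, and Cyc1, which encodes cytochrome c1, at 132 ± 17.3. Cyc1 had 452, 353 and 389 counts and Uqcc1 had 162, 120 and 158, so both were lowest in library 2, whereas Uqcc2, with 245, 333 and 238, was highest there. The ratio of highest to lowest library was 1.32 for Cyc1, 1.51 for Uqcc1 and 1.32 for Uqcc2.

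In cytochrome c and ATP synthase some genes with copied sequence had few counts and others did not. Cycs, the cytochrome c that carries electrons from complex III to complex IV, had 1, 1 and 2 counts, or 1.39 ± 0.707 CPM per coding kilobase, and 100% of its windows occur in other genes. The list of nuclear ATP synthase genes, which includes the assembly factors Atpaf1 and Atpaf2 and the inhibitor Atpif1, had a median of 334 CPM per coding kilobase, led by the epsilon subunit Atp5e at 694 ± 28.3, the gamma subunit Atp5c1 at 512 ± 27.6 and the c-ring gene Atp5g3 at 463 ± 29.3. The 2 other c-ring genes, Atp5g1 (11, 13 and 7 counts) and Atp5g2 (7, 9 and 5 counts), stood at 8.08 ± 1.97 and 5.11 ± 1.20, with 99.7% and 100% of windows shared, and Atp5l at 11.05 ± 2.01 with 100%. Atp5g3 shared none. Atp5h and Atp5f1 stood at 154 ± 7.70 and 257 ± 9.49 although 67.1% and 50.1% of their windows were shared. Of 20 tested 4 passed (20%, background 27.6%). The catalytic pair Atp5a1 (2548, 2015 and 2222 counts) and Atp5b (2209, 1972 and 1938 counts) was highest in library 1, whereas the short genes Atp5mpl and Atpif1 were highest in library 2. The part of the copies was not tested here either.

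Among other complex I assembly genes 5 of 10 tested passed (background 27.6%). Dmac1, Tmem126b and Ecsit were the most abundant at 127 ± 11.6, 99.8 ± 9.75 and 60.6 ± 9.42 CPM per coding kilobase. Those that passed with a ratio of at least 1.5 were Dmac2 (143, 104 and 82 counts, highest in library 1), Tmem70 (73, 117 and 83, highest in library 2) and Nubpl, which delivers iron-sulfur clusters (21, 31 and 43, highest in library 3), so that no library led in all of them. Of 22 complex IV assembly genes 1 passed, Cmc2 (64, 102 and 57 counts, highest in library 2). Their highest levels were Cox14 at 399 ± 52.5, Cox20 at 331 ± 34.5 and Pet100 at 249.8 ± 21.4, while the copper chaperone Cox17 had 0 counts in every library without a shared window.

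Of the list of cytochrome c and ubiquinone synthesis 4 of 14 tested passed (28.6%, background 27.6%), all of them genes for ubiquinone, the carrier between complexes I, II and III. Coq9, Coq5 and Coq8a stood highest at 61.8 ± 4.32, 61.5 ± 6.05 and 57.6 ± 14.2 CPM per coding kilobase. Coq8a, a kinase-like protein, had 416, 403 and 229 counts, and library 3 was lowest, with library 1 1.63-fold above it after scaling. Pdss2, which helps to make the side chain, had 104, 84 and 55 counts, again lowest in library 3, with a ratio of 1.70. Coq8b (84, 144 and 73 counts) and the hydroxylase Coq7 (30, 67 and 43 counts) were highest in library 2, by 1.72-fold over library 3 and 2.16-fold over library 1.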

How the data were processed

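The 3 libraries are technical replicates of 1 biological replicate per the labels, and they were treated as 1 group. Sums of plasma cell, neutrophil and erythroid markers differed widely between them, as given above, and how this goes with the label was not tested. Values are whole-number counts per gene as deposited, made on mm10 with GENCODE M4 per the file descriptions. For the aligner, the counter, the strand setting and any removal of duplicates, the method is not given in the sources used here. Totals of 2872350 to 3228215 counts per library limit precision, and 262 identifiers with 0.117% of the counts found no name. Symbols, lengths and sequences came from GENCODE M21 (GRCm38), and counts were made on M4 models.

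Members and lists were chosen with earlier results of these data known, so no list is independent evidence. CPM used total counts. Genes with a mean count of at least 10 were tested by a chi-square test against Poisson expectation (2 degrees of freedom) on totals times TMM factors (0.990, 1.02 and 0.993, edgeR 4.0.16 in R 4.3.3), with Benjamini-Hochberg adjustment over all 10282. Counts were also simulated with Poisson error only, which is what the test assumes. In a set of 10282 the test called 18.0%, 68.0%, 86.0% and 100% of genes changed by 1.25, 1.5, 2 and 4 fold. It called 0.03% of unchanged genes. The simulation held no further spread between libraries, so the last share does not carry over to these data.

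No genome was given, so copies were sought among M21 transcripts by windows of 50 bases and with BLAST 2.17.0 (at least 90% identity over 80% of the coding sequence), and copies outside the annotation are missed. Exons of 35 members overlap another gene.

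Named genes were all mitochondrial members, the 4 highest and 2 lowest per role, members under 1 CPM, isoform pairs, the 10 members with the largest ratio among those past the test, the 10 with the most counts per coding base, and per list the 3 highest and those past the test with a ratio of 1.5 or more. Further genes are named that were picked with their values in view. A gene that the rule takes is not reported here.

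The calls were repeated with a negative binomial variance in the chi-square test, an adjusted p of 0.01, other count filters, plain totals and size factors of DESeq2 1.42.0. Other alternatives were exon length, leaving out members with copies by the BLAST rule, and leaving out each library. Tests limited to genes under 1 count per coding base or of short coding length, the mitochondrial ratios for members with 100 counts or per copy-free window, and windows of 36 bases were added after seeing the data. Software was Python 3.11.15 with pandas 2.3.3, numpy 2.4.6 and scipy 1.17.1, and plots used matplotlib 3.10.9.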

Additional observations from a re-analysis of the deposited data

How the results depend on the processing

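The count of 25 members that passed the chi-square test, 17 of them highest in library 2, fell to 13 and 8 at an adjusted p of 0.01, to 11 and 11 when only genes of 600 coding bases or less were tested, and to 16 in all when only genes under 1 count per coding base were. It was 0 and 0 with the negative binomial variance. Leaving out each library in turn gave 6 to 17 members in all and, while library 2 was kept, 5 to 16 highest in library 2. DESeq2 size factors gave 25, and plain totals gave 27, of which 23 were shared. Fewer genes or samples were tested under some of these settings, and otherwise the cause was not tested. The nuclear share of counts, 0.841%, became 2.22% and the mitochondrial share, 0.390%, became 0.439% when counts were divided by coding length first. The median nuclear level of 307 CPM per coding kilobase became 96.0 per kilobase of exon, since exons are longer. The mitochondrial median of 239.9 became 492 without members that have copies by the BLAST rule given above. That rule kept mt-Nd4, with 62.2% of its windows shared, and mt-Atp8, with 0 counts in every library. It left out mt-Cytb and mt-Nd6, which share no window with another gene. The median of 492 is therefore not a value for genes free of copied sequence. The log2 ratio of mitochondrial over nuclear level, -0.35, turned to 1.28 per exon length and 0.37 from sums. The ratio was 0.68 without members that have copies by the same BLAST rule, so the same limit holds for it. It was 0.83 with the mitochondrial members of at least 100 counts and 0.75 per copy-free window (8 mitochondrial and 48 nuclear members). Cox7a2 over Cox7a1 moved from 6.01 to 5.09 per exon length. In the other 79 comparisons with an alternative the direction was kept, counts stayed within 1.5 times, and values stayed within 1 SD (between libraries, or between members for the ranges of counts per base) or within their counting interval. Such intervals are wide for tissue forms with few counts. No paired analysis was possible because the labels give 1 group.

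With 1 biological replicate nothing is known of the spread between animals. Depth limits the tissue forms and the 6 mitochondrial genes at or near 0, where 3 counts are about 1 CPM. Levels of members with copied windows are uncertain, and so are those of members that overlap other genes, since the strand setting is not given.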

Other observations

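Genes that keep and express mitochondrial DNA were present at lower levels than the chain itself, and 9 of 24 tested differed between the libraries (37.5%, beside 27.6% of all genes and 34.2% of genes with a mean count of 100 to 1500). The RNA-stabilising protein Slirp stood at 196 ± 25.1 CPM per coding kilobase (SD, n = 3), the terminator-family gene Mterf3 at 150.5 ± 3.84 and Tfam, which packages mitochondrial DNA, at 149 ± 5.45. The accessory subunit of the mitochondrial DNA polymerase, Polg2, had 264, 219 and 141 counts and was highest in library 1 by 1.68-fold over library 3 after scaling (chi-square test, adjusted p = 5.3e-05). Fastkd1 (131, 98 and 147 counts), Fastkd3 (239, 166 and 261) and Fastkd5 (70, 35 and 63), of a family that acts on mitochondrial RNA, were lowest in library 2 and highest in library 3 after scaling, by 1.72, 1.81 and 2.07 fold. Of the same family Fastk (398, 380 and 279 counts) and Tbrg4 (373, 321 and 235) passed with library 1 highest and library 3 lowest, and Fastkd2 did not pass.

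Among regulators of respiratory genes 5 of 13 tested differed (38.5%). The share was 27.6% over all genes and 34.2% of genes with a mean count of 100 to 1500, so the count says nothing particular of them. Myc stood highest at 218 ± 10.2 CPM per coding kilobase, followed by the oxygen-response factor Hif1a at 143 ± 10.9 and Nrf1, nuclear respiratory factor 1, at 128 ± 10.97. Gabpa, which binds the ETS motif, had 178, 146 and 225 counts, highest in library 3 and lowest in library 2 by 1.77-fold (chi-square test, adjusted p = 4.2e-06). Esrra, a nuclear receptor known for driving respiratory genes, had 31, 8 and 12 counts, highest in library 1 by 4.00-fold (adjusted p = 0.0018, chi-square test). The coactivator Ppargc1b reached 20.8 ± 3.33 CPM per coding kilobase, while its better known relative Ppargc1a had 3, 0 and 5 counts and Ppara 0, 1 and 0. Of the genes that feed electrons to ubiquinone by other routes 2 of 8 tested differed (25%, background 27.6%). Etfb, Etfa and Etfdh, which serve fatty acid oxidation, were the highest at 244 ± 28.6, 194 ± 9.38 and 80.7 ± 11.6.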
